A study of Rattus norvegicus with 8 samples.

Results

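The inhibin, activin and anti-Müllerian hormone genes of the rat fetal testis are described here as 7 genes: Inha, Inhba and Inhbb, which encode the inhibin and activin subunits, Amh and its receptor gene Amhr2, and Fst and Fstl3, which encode activin-binding proteins. They were taken by name: every probe set whose only gene symbol in the platform annotation was one of the 7 was a member, which gave 10 of the 31042 probe sets tested, and 7 of 14217 genes. Inhba, Fst and Fstl3 had 2 probe sets each and the other 4 genes had 1. All 10 were analysed and no filter on low signal was applied. The samples were testes of male Fischer 344 rat fetuses at gestational day 20. In 4 samples the dam had received corn oil alone (vehicle), and in 4 dibutyl phthalate (DBP) at 50 mg/kg body weight in corn oil, by gavage once a day from gestational day 12 to day 20. Testes were taken 6 h after the last dose, and total RNA of each sample was measured on 1 Affymetrix array. DBP is a plasticizer known to disturb the development of the fetal testis at high doses, and the comparison asked which transcripts differed at this dose. Separate dams or litters are not stated in the labels, so a p-value here reflects only how these samples scattered, which may be technical, and 4 arrays a group limit the precision.

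Inhibins and activins are dimers of the same beta subunits. A beta subunit joined to the alpha subunit makes an inhibin, and a pair of beta subunits makes an activin; activins signal through type I and type II serine-threonine kinase receptors and SMAD proteins, and inhibins oppose them. In the fetal testis Sertoli cells make AMH, which causes the Müllerian ducts to regress in males, and the inhibin alpha and beta B subunits, while in the mouse activin A, the dimer of beta A, comes from fetal Leydig cells and drives Sertoli cell proliferation. AMH acts through its own type II receptor, the product of Amhr2, and follistatin and follistatin-like 3 bind activins and keep them from their receptors.

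The array values are log2 signals, so a difference of 1 is a doubling, and probe sets differ in how brightly they bind, so levels were compared between arrays and not between genes. The array medians were 6.08 to 6.13, correlations between arrays were 0.991 to 0.998, and RNA integrity numbers ran from 8.6 to 8.8. The labelling controls (poly-A RNAs of bacterial genes) were weak on the arrays of DBP replicates 3 and 4, with a mean spike-in signal of 4.84 and 4.79 against 6.46 to 7.17 on the other arrays. The SD over replicates was larger in DBP than in vehicle for 76.4% of probe sets. Within an array, the SD over all probe sets was 2.19 and 2.18 in DBP replicates 3 and 4, against 2.23 to 2.25 on the other arrays. Among markers, the Leydig cell hormone gene Insl3 averaged 11.86 in vehicle, and the Sertoli cell gene Aard averaged 11.77. Other markers of these cells were dimmer, such as Vsnl1 (Leydig) at 5.165 and Cst12 (Sertoli) at 6.62 in vehicle. These levels are a description and do not test the tissue.

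None of the 7 genes passed the test. In limma, with Benjamini-Hochberg adjustment over the 31042 probe sets and a threshold of 0.05, 0 of 7 genes were called, where 1.22% of all genes were (1.07% of all probe sets). Inhbb and Inhba, 2 of the 7, reached an unadjusted p under 0.05, where 19.1% of all genes did. The DBP and vehicle values did not overlap for the same 2 genes, both with DBP below vehicle, where 12.9% of genes did not overlap and 5.56% did so with DBP below. The shares of genes are for the brightest probe set of each gene. With so few members these counts say nothing particular about the family. The median log2 difference, DBP minus vehicle, was -0.05 over the 7 genes and 0.02 over all genes, with 6 of the 7 lower in DBP and 1, Fst, higher.

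**Figure D1:**
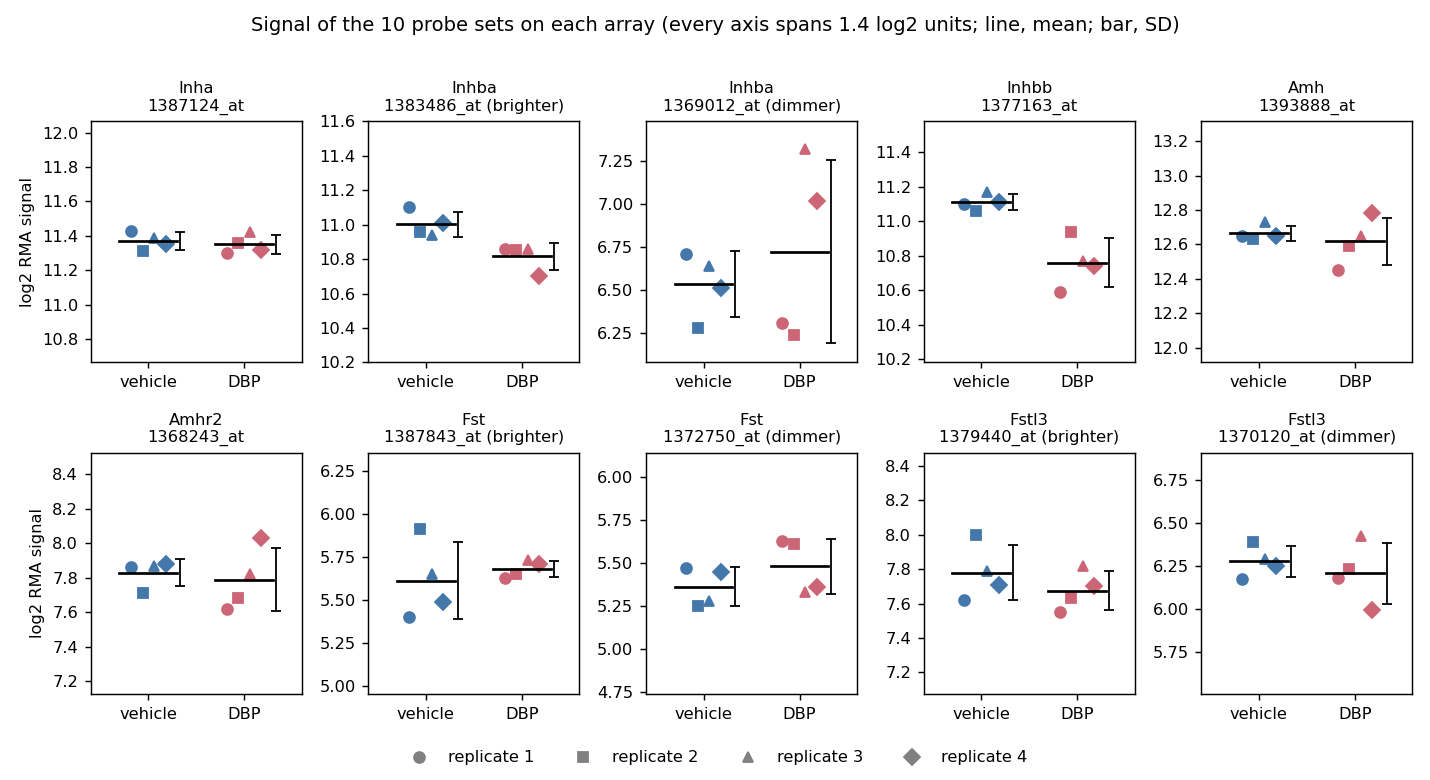
Log2 RMA signal (vertical axis, each spanning the same number of log2 units) of the 10 probe sets on each of the 8 arrays, by group; the marker shape gives the replicate, the line the group mean and the bar the SD. Only Inhbb and the brighter probe set of Inhba have all 4 DBP values below all 4 vehicle values.

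The 4 ligand genes differ in the sequence before their annotated start, and the 250 bases upstream are shown for each. Inhbb and Inhba are the members whose groups did not overlap, Inhba only on its brighter probe set. Inha and Amh are the ligand genes whose groups overlapped. The sequences are from RefSeq, build GRCr8, read 5′ to 3′ on the strand of the gene: Inhbb at chr13:33089374-33089623 (minus), Inhba at chr17:53804509-53804758 (minus), Inha at chr9:84442859-84443108 (plus) and Amh at chr7:9559868-9560117 (minus). Capitals mark matches, on either strand, to any of 6 short words known as binding elements. The first was AAGGTCA, bound by the NR5A receptors such as SF-1. The second was the cyclic AMP response element TGACGTCA, and the third its variant TGCGTCA. The fourth was AGATAA, bound by the zinc finger family to which Gata4 belongs. The fifth was the GC box GGGCGG, and the last was the core promoter word TATAAA.
Inhbb: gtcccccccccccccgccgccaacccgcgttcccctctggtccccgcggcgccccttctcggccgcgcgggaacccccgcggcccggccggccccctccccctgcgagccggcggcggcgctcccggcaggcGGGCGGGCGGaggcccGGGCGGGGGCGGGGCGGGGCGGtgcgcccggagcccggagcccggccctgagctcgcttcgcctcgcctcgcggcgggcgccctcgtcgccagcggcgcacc
Inhba: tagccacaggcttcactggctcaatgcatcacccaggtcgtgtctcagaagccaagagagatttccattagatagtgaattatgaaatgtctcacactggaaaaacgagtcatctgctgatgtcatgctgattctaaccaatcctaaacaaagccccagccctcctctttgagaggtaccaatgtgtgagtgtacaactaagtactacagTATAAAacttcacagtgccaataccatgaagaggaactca
Inha: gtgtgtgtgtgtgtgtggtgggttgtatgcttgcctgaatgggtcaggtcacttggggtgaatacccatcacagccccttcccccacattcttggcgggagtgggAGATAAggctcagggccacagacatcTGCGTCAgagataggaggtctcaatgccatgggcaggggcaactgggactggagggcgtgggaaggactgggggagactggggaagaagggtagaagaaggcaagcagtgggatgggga
Amh: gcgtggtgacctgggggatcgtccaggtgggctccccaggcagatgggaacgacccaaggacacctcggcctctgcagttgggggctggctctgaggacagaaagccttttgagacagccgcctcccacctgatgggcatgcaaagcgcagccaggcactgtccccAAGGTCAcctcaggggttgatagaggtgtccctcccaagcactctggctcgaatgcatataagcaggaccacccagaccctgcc
The window of Inhbb is a CpG-rich one, with 86.8% G and C and 44 CpG dinucleotides against medians of 51.2% and 5 over 33469 windows of the same length; 0.0627% of windows had as high a G and C content. It held 6 GC boxes, partly overlapping each other, and 30.5% of all windows held at least 1. Inhba held the core promoter word beginning 40 bases before the start (found in 12.9% of windows), with 43.6% G and C. Inha held the variant of the cyclic AMP element at 119 bases before the start (1.66% of windows) and the word of the zinc finger family at 145 bases (10.3%). Amh held the NR5A element beginning 84 bases before the start, and 3.99% of all windows held it. The full cyclic AMP element was in none of the 4 windows and in 1.59% of all. These matches describe letters only. Of the 7 genes, 6 had an upstream sequence, all but Fst. The window of Fstl3, whose groups overlapped, also held GC boxes and the core promoter word, with 68.8% G and C and 21 CpG dinucleotides. GC boxes were thus not particular to Inhbb. The window of Amhr2 held none of the 6 words.

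Inhbb, the beta B subunit of inhibin B and activin B, had the largest difference among the members. Its log2 signal was 11.10, 11.06, 11.17 and 11.11 in vehicle replicates 1 to 4, and 10.59, 10.94, 10.77 and 10.74 in DBP replicates 1 to 4. All 4 DBP arrays lay below all 4 vehicle arrays, with a gap of 0.12, and DBP replicate 1 was the lowest. The group means were 11.11 ± 0.045 and 10.76 ± 0.14 (SD, n = 4 per group), a difference of -0.35 ± 0.075 (SE), or 1.27-fold lower, with a 95% confidence interval of -0.52 to -0.18. In limma the adjusted p was 0.0614, just above the threshold. The exact permutation test over the 8 arrays (2-sided) gave 0.0286, the smallest p that 4 against 4 arrays allow. Groups that do not overlap always give this p, so it adds nothing to the gap, and 12.9% of all genes had such groups. Split by spike-in signal, the difference was -0.345 for DBP replicates 1 and 2 and -0.355 for replicates 3 and 4, the low pair. Without DBP replicate 2, the DBP array nearest to vehicle, it was -0.41 and passed (adjusted p = 0.0222 in limma). Leaving out that array raised the probe sets called from 331 to 606, so this pass is no further support. That setting was 1 of 6 among 22 alternatives that took Inhbb past the threshold. In another of the 6, DBP replicates 3 and 4 against vehicle, 4129 probe sets were called.

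Inhba, the beta A subunit of activin A and inhibin A, gave opposite values on its 2 probe sets. The brighter probe set read 11.10, 10.96, 10.94 and 11.01 in vehicle replicates 1 to 4 and 10.86, 10.85, 10.86 and 10.70 in DBP replicates 1 to 4. The groups did not overlap, with a gap of 0.08 and DBP replicate 4 lowest. The difference was -0.185 ± 0.063 (SE; 95% interval -0.32 to -0.05), 1.14-fold lower, with an adjusted p of 0.18 in limma. The exact permutation test gave 0.0286 here too, as it does for any groups that do not overlap. The dimmer probe set read 6.71, 6.28, 6.64 and 6.51 in vehicle and 6.31, 6.24, 7.32 and 7.02 in DBP. Here DBP replicates 1 and 2 lay near the lowest vehicle array and replicates 3 and 4 above all vehicle arrays. The mean difference on this probe set was 0.19 ± 0.22 (SE; adjusted p = 0.663). It averaged -0.26 for DBP replicates 1 and 2 but 0.635 for replicates 3 and 4, the arrays whose poly-A spike-ins were low; the part of the spike-in level in these values was not tested. The mean over both probe sets gave a difference of 0.00 (adjusted p = 0.999), so the direction for the gene rests on the brighter probe set.

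Inha, the alpha subunit that turns a beta subunit into an inhibin, differed little between the groups. It read 11.43, 11.31, 11.39 and 11.35 in vehicle and 11.30, 11.36, 11.42 and 11.32 in DBP. The groups overlapped over nearly their whole range, and both spanned 0.12. The difference was -0.02 ± 0.056 (SE), with a 95% interval of -0.14 to 0.10 and an adjusted p of 0.872 in limma.

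The subunits were also set against each other within each array, which tests whether 2 genes differed unequally between the groups and compares no levels. Inhbb minus Inha was -0.26 ± 0.048 in vehicle and -0.59 ± 0.13 in DBP (SD, n = 4 per group), a shift of -0.33 in which all 4 DBP arrays lay below all vehicle arrays. Its exact permutation p was 0.0286, which groups that do not overlap always give, and 0.114 after Benjamini-Hochberg adjustment over the 8 pairs tested. Inha minus Inhba shifted by 0.165 (exact p = 0.0571, adjusted 0.114), and by -0.02 with the mean over both Inhba probe sets. Inhbb minus Inhba shifted by -0.165 (exact p = 0.143, adjusted 0.229), by -0.35 with that mean and by -0.094 without DBP replicate 1. Of the 8 pairs 0 passed after adjustment by the exact permutation test, and 1, Inhbb with Inha, had an unadjusted p under 0.05.

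**Figure D2:**
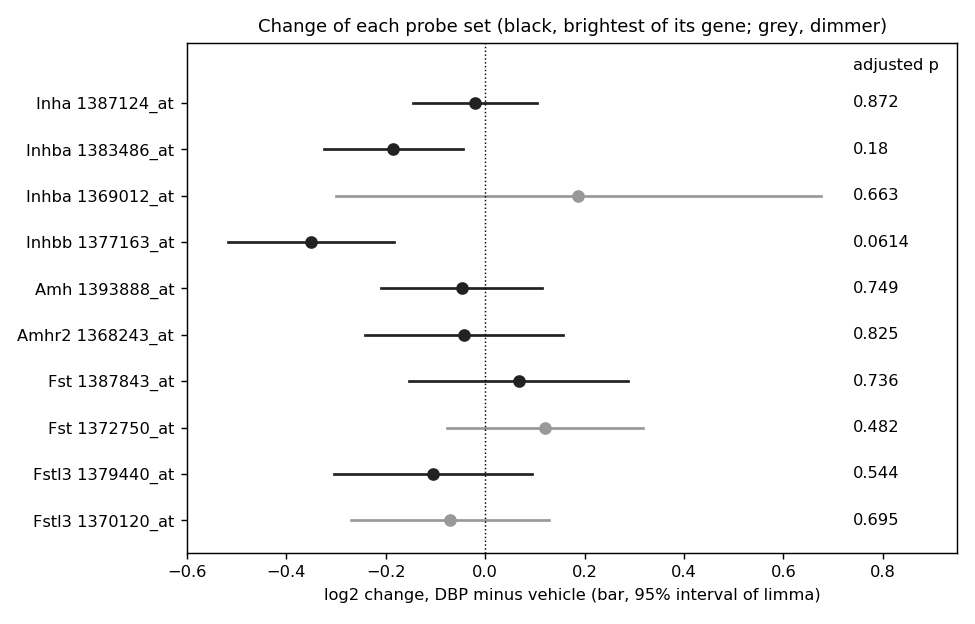
Log2 difference between DBP and vehicle (horizontal axis) of the 10 probe sets, with its 95% interval from limma and the adjusted p at the right; black points are the brightest probe set of each gene and grey points the dimmer ones. The intervals of Inhbb and of the brighter Inhba probe set lie below 0, and that of the dimmer Inhba probe set runs from -0.30 to 0.67.

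Amh, whose product makes the Müllerian ducts regress, read 12.65, 12.63, 12.73 and 12.65 in vehicle and 12.45, 12.59, 12.65 and 12.78 in DBP. Of the DBP arrays, replicates 1 and 2 lay below all vehicle arrays and replicate 4 above them. The difference of the means was -0.05, with a 95% interval of -0.21 to 0.11. The SD was 0.044 in vehicle and 0.14 in DBP. Over DBP replicates 1 and 2 the difference was -0.145, and over replicates 3 and 4 it was 0.05.

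Amhr2, the type II receptor that binds AMH, read 7.86, 7.71, 7.87 and 7.88 in vehicle and 7.62, 7.68, 7.82 and 8.03 in DBP. As for Amh, DBP replicate 1 was lowest and DBP replicate 4 highest of all 8 arrays, and replicates 1 and 2 lay below all vehicle arrays. The difference was -0.04 (95% interval -0.24 to 0.16; adjusted p = 0.825 in limma), at -0.18 over DBP replicates 1 and 2 and 0.095 over replicates 3 and 4. The 2 genes varied together among the DBP arrays: Amh minus Amhr2 within an array had an SD of 0.069 in vehicle and 0.065 in DBP, while Amh and Amhr2 alone had SDs of 0.14 and 0.18 in DBP. That within-array difference averaged 4.83 in DBP and 4.835 in vehicle, a shift of -0.005 (exact permutation p = 0.971). The mean of the 11 measured Sertoli cell markers rose in the same order over DBP replicates 1 to 4 (9.32, 9.33, 9.38 and 9.50). The order is therefore not particular to these 2 genes. DBP replicate 4, the highest array for both genes, was one of the pair with low spike-in signal. With the spike-in level as a covariate the differences were -0.12 for Amh and -0.13 for Amhr2, and neither passed in limma (adjusted p = 0.423 and 0.459).

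**Figure D3:**
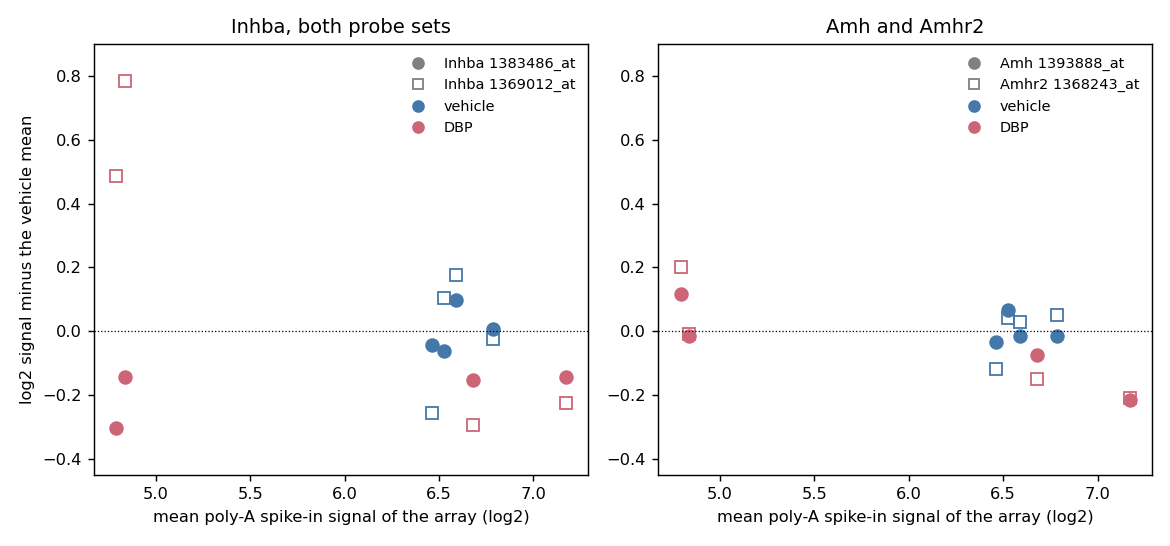
Log2 signal minus the vehicle mean (vertical axis) of both Inhba probe sets (left) and of Amh and Amhr2 (right) against the mean poly-A spike-in signal of the array (horizontal axis), for the 8 arrays. DBP replicates 3 and 4, at spike-in means of 4.84 and 4.79, carry the high values of the dimmer Inhba probe set, and DBP replicate 4 the highest values of Amh and Amhr2.

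Fst and Fstl3, which encode follistatin and follistatin-like 3, did not separate the groups on any of their 4 probe sets. The brighter probe set of Fst read 5.40, 5.91, 5.65 and 5.49 in vehicle and 5.63, 5.65, 5.73 and 5.71 in DBP, so all DBP values lay inside the vehicle range. Both Fst probe sets lay below the array medians and are dim. The difference was 0.07 ± 0.10 (SE; adjusted p = 0.736). The dimmer one read 5.47, 5.25, 5.28 and 5.45 in vehicle and 5.63, 5.61, 5.33 and 5.36 in DBP, with DBP replicates 1 and 2 above all vehicle arrays and replicates 3 and 4 within their range. Its difference was 0.12 (adjusted p = 0.482). Fstl3 on its brighter probe set read 7.62, 8.0, 7.79 and 7.71 in vehicle and 7.55, 7.63, 7.82 and 7.70 in DBP, with overlapping groups. The difference was -0.105 (95% interval -0.30 to 0.09; adjusted p = 0.544), and -0.07 on the dimmer probe set (adjusted p = 0.695). On the brighter it was -0.032 without vehicle replicate 2 and -0.158 without vehicle replicate 1. The binding proteins and the beta subunits were also paired. Inhbb minus Fst shifted by -0.4175 (exact permutation p = 0.0571) and Inhba minus Fst by -0.2525 (exact p = 0.171), with adjusted values of 0.114 and 0.229. The latter was -0.0925 with the mean over the probe sets of each gene and -0.149 without vehicle replicate 1. Fst minus Fstl3 shifted by 0.17 (exact permutation p = 0.0571, adjusted 0.114).

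The other genes of the pathway were 45 measured of 56 listed, and 0 of them passed in limma, higher or lower. In 10 the unadjusted p was under 0.05, which is 22.2% against 19.1% of all genes. Of these 3 were higher and 7 lower, where 11.3% of all genes were higher and 7.84% lower at that level. The groups did not overlap for 5, or 11.1% against 12.9% of all genes, and the median difference of the 45 was 0.00. The shares pooled over direction, 22.2% and 11.1%, are near the background. The split by direction had more genes lower than higher, the reverse of all genes, and was not tested.

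Among 9 measured receptors and co-receptors, 1 had an unadjusted p under 0.05 and was higher, and 3 were lower. Acvr1, a type I receptor used by AMH and bone morphogenetic proteins, read 8.59, 8.71, 8.64 and 8.61 in vehicle and 8.41, 8.48, 8.25 and 8.20 in DBP. All DBP arrays lay below all vehicle arrays, lowest in the low spike-in replicates 3 and 4. The difference was -0.30 (adjusted p = 0.0847 in limma), and -0.085 and -0.12 on its 2 other probe sets. Without DBP replicate 2, the DBP array nearest to vehicle, the difference was -0.35 and passed (adjusted p = 0.044). Leaving out that array also raised the probe sets called from 331 to 606, so this pass is no further support. Bmpr2, a type II receptor of bone morphogenetic proteins, gave -0.70 (adjusted p = 0.129) on its brighter probe set and 0.17 on the dimmer one, so its probe sets disagree in direction; with the RNA integrity number as a covariate the brighter gave -0.89 (adjusted p = 0.0447). Igsf1, an immunoglobulin superfamily protein once proposed as an inhibin-binding protein, was added to the genes named here after its values were seen. It gave 0.39 (adjusted p = 0.133 in limma) on its brighter probe set and 0.10 (adjusted p = 0.559) on the dimmer one. On the brighter, DBP replicate 1 read 6.27, inside the vehicle range of 6.16 to 6.32. Without that array the brighter gave 0.52 (adjusted p = 0.0198), in a fit that drops the array going against the difference. The type II activin receptors Acvr2a and Acvr2b, named for their role, gave -0.07 and -0.015.

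Of 8 SMAD proteins 1 had an unadjusted p under 0.05. Smad7, the inhibitory SMAD that activin and TGF beta signals induce, read 8.21, 8.31, 8.25 and 8.17 in vehicle and 7.93, 8.0, 7.99 and 8.18 in DBP. Only DBP replicate 4 reached the vehicle range, and the difference was -0.21 (adjusted p = 0.161 in limma), with -0.45 and 0.045 on its other probe sets. Smad2 and Smad3, which carry the activin signal and are named for that role, gave 0.02 and 0.025. Of 4 proprotein convertases, enzymes of the kind that cut ligand precursors, 0 had an unadjusted p under 0.05 in limma and 0 passed.

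Of 8 other binding proteins and antagonists 2 were lower at an unadjusted p under 0.05. They were Nog, the bone morphogenetic protein antagonist noggin (-0.255, adjusted p = 0.108), and Wfikkn1, a protease inhibitor-like protein that binds growth differentiation factors (-0.2575, adjusted p = 0.12). In both, all DBP arrays lay below all vehicle arrays. Their probe sets are dim, with Nog at 3.22 to 3.69 and Wfikkn1 at 5.14 to 5.58 over the 8 arrays. Of 6 related ligands Inhbc, a further activin subunit best known in liver, was higher by 0.18 (adjusted p = 0.181 in limma) at a signal of 3.24 to 3.56. It alone of the 6 had an unadjusted p under 0.05, where 11.3% of all genes were higher at that level. All 6 had a higher mean in DBP without passing, with a median difference of 0.08 against 0.02 over all genes. Their median signal was 3.60, so most are dim.

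Of 10 measured regulators of Amh and Inha transcription, 1 was higher and 1 lower at an unadjusted p under 0.05. Gata1, a factor of Sertoli and red blood cells, read 5.04, 5.08, 5.18 and 5.09 in vehicle and 5.83, 5.55, 5.19 and 5.26 in DBP. The difference was 0.36 (adjusted p = 0.182 in limma), and DBP replicate 3 lay just above the highest vehicle value. Over DBP replicates 1 and 2 alone it was 0.59 (adjusted p = 0.0168). Those are the arrays where Gata1 read highest, so that p is no further support. With them alone 577 of all probe sets passed, against 331 with all arrays. The mean of 6 erythroid markers was 9.44 and 9.40 in DBP replicates 1 and 2. It was 8.75 to 9.10 in vehicle and 8.92 and 8.95 in DBP replicates 3 and 4. The part of blood cells in the Gata1 values was not tested. Gata4, which activates Amh and inhibin alpha promoters, gave -0.15 (adjusted p = 0.262), with -0.36 on its dimmer probe set. Nr5a1, the SF-1 gene, named for its role, gave 0.035.

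**Figure D4:**
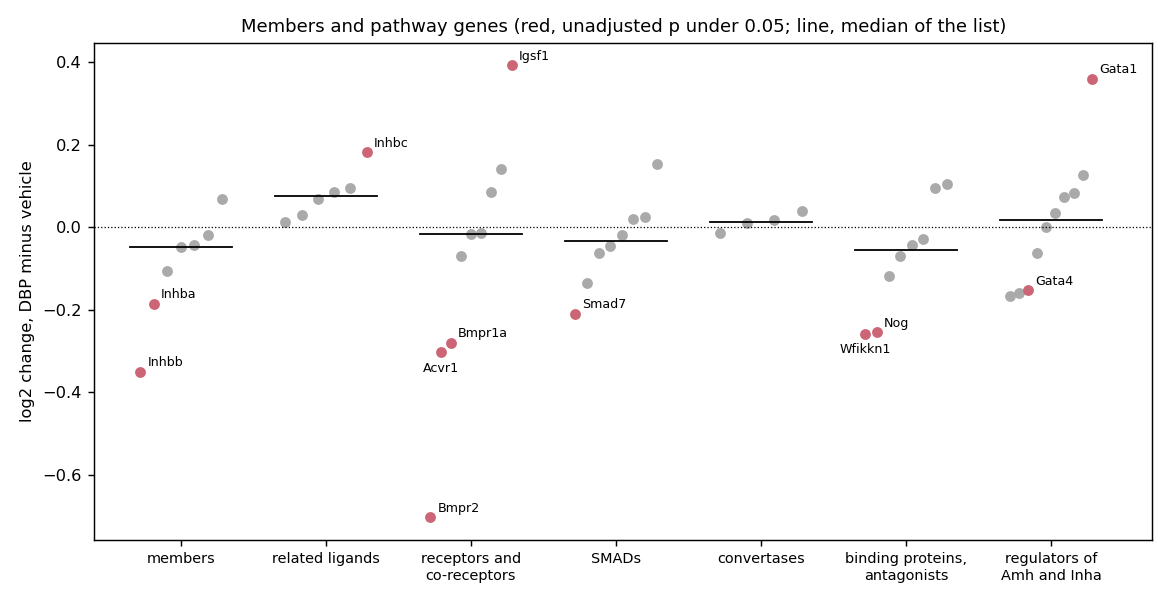
Log2 difference between DBP and vehicle (vertical axis) of the 7 members and of the measured genes of 6 pathway lists, with 1 point per gene (brightest probe set); red points have an unadjusted p under 0.05 and are named, and lines are list medians. Differences run both ways around 0 in most lists, and Bmpr2 at -0.70 lies lowest.

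Markers of the cells that make these hormones were measured on the same arrays. The 11 measured Sertoli cell markers had a mean log2 signal of 9.25 to 9.31 on the vehicle arrays and 9.32 to 9.50 on the DBP arrays, and 0 passed in limma, with 5 higher and 1 lower (Gata4) at an unadjusted p under 0.05, or 5 and 1 of 11 where 11.3% of all genes were higher and 7.84% lower. The 5 higher were Cst12 (0.46), Ptgds (0.26), Clu (0.2475), Aard (0.24) and Shbg (0.2025). The groups did not overlap for 4 of the 11 Sertoli cell markers, against 12.9% of all genes. Inhbb was lower on the same arrays, while Dhh, a Sertoli cell ligand named for its role, gave 0.03. The 9 Leydig cell markers averaged 10.22 to 10.30 in vehicle and 10.09 to 10.28 in DBP, and 0 passed in limma. At an unadjusted p under 0.05, 2 were higher, Hsd11b1 (0.2775) and Hsd3b1 (0.1725). The 3 lower were Insl3 (-0.34, adjusted p = 0.0732 in limma), Lhcgr (-0.2075) and Vsnl1 (-0.70). The groups did not overlap for 5 of these 9 markers. In whole testis, fewer cells of a type and less RNA per cell cannot be told apart, and the part of either in the values of Inhbb and Inhba was not tested.

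The genes whose values over the 8 arrays were most like each member's were found among 7108 genes of at least median signal (7109 for Fst, itself below it), by Pearson's r. Both groups enter r, so a gene with a like difference between the groups scores high, and in so many genes over 8 arrays high values arise readily; r is given as a description. Inhbb was nearest to Slc41a3, Pcbp1 and Ubqln4 (each r = 0.98). Inhba was nearest to Adamts1 (0.98), Elovl6 (0.97) and Zfp958l1 (0.96). Amh was nearest to Igsf3 (0.98), Hpcal1 (0.94) and Men1 (0.93), and Amhr2 to Ap1g2 (0.95), Tmem59 (0.94) and Laptm4b (0.94). The nearest were Klf2 (0.94), Coro7 (0.89) and Stmn1 (0.89) for Fstl3, Nudt3 (0.89), Nkiras2 (0.88) and Pim3 (0.87) for Fst, and Bud23, Ctdspl2 and Rasal2 (each 0.87) for Inha.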

How the data were processed

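Total RNA of 8 fetal testis samples was hybridised to Affymetrix rat arrays, 1 array per sample. The deposited values are log2 signals made by the authors with RMA, per the submitters' processing notes, 1 per probe set and array and rounded to 2 decimals; its version was not given in these sources. 57 Affymetrix controls were set aside, leaving 31042 probe sets, of which 20826 had 1 gene symbol in the platform annotation, 436 several and 9780 none. The probe set with the highest mean over the 8 arrays represented a gene, and for named genes the others are given beside it. DBP was compared with vehicle with limma 3.58.1 in R 4.3.3 (lmFit and eBayes, 2-sided), with Benjamini-Hochberg adjustment over all probe sets and a threshold of 0.05. On simulated data the test missed some changed genes, more of them at smaller changes, and fell short of the recovery first required, which was then lowered; a gene left uncalled may therefore still differ. Single values and within-array differences were compared by exact permutation tests (SciPy 1.17.1). All members were named, with up to 2 genes per pathway list by unadjusted p, the 3 most like genes per member, and others as said. The members, the 6 pathway lists and the 10 marker lists were chosen with earlier results of these data known. 11 listed pathway genes without a single-symbol probe set were not analysed here. No array pair was identical. The labels do not say whether replicate numbers pair the samples, and no pairing was used in the fit reported.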

Additional observations from a re-analysis of the deposited data

Results flagged for a closer look

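In 4 of 54 groups of 4 arrays tested, 1 array lay far from the other 3 by Dixon's ratio of gap to range, where chance gives about 1 in 20. The brighter Inhba probe set read 10.70 in DBP replicate 4, against 10.85 to 10.86 in the other DBP arrays. Amhr2 read 7.71 in vehicle replicate 2, against 7.86 to 7.88 in the others. Wfikkn1 read 5.39 in vehicle replicate 3, and Inha minus Inhba was 0.45 in vehicle replicate 3.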

How the results depend on the processing

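The calls sit near the threshold. No member passed in the fit reported, and 1, Inhbb, passed with an adjusted p under 0.05 in 6 of its 22 alternatives: with only probe sets above the median signal (-0.35, adjusted p = 0.0397), only those above 5 (-0.35, 0.0486), a trend and robust prior (-0.35, 0.0175), array weights (-0.38, 0.0319), DBP replicates 3 and 4 against vehicle (-0.355, 0.015) and without DBP replicate 2 (-0.41, 0.0222). Over the 22 alternatives its difference was -0.41 to -0.29 and its adjusted p 0.015 to 0.194. A threshold of 0.1 also gave 1 member. The direction of the other members is not settled where it lies near 0. Inha was 0.0025 with arrays shifted to the same median, Inhba 0.00125 with the mean over its probe sets, and over DBP replicates 3 and 4 Amh was 0.05 and Amhr2 0.095. With the same mean, Inha minus Inhba shifted by -0.021. Fst could not be fitted with the median filter, which it did not pass. Leaving out 1 array at a time gave 0 to 1 members and 0 to 1 pathway genes called. The differences then ran from -0.41 to -0.29 for Inhbb, -0.10 to 0.01 for Amh (0.0083 without DBP replicate 1), -0.12 to 0.013 for Amhr2, -0.158 to -0.032 for Fstl3 and -0.0033 to 0.17 for Fst. The shift of Inha minus Amh ran from -0.012 to 0.092 and that of Amh minus Amhr2 from -0.032 to 0.023; with 3 against 4 arrays the exact test cannot go below 0.0571. The cause of these changes was not tested. Of all probe sets, 331 passed in the fit reported, 74 with unmoderated t statistics, 577 and 4129 with DBP replicates 1 and 2 or 3 and 4 alone, and 82 (without vehicle replicate 3) to 606 (without DBP replicate 2) with 1 array left out. Deviations from the group means gave no clear pairing of same-numbered samples (correlations 0.11, -0.08, 0.10 and -0.02). The highest correlation was with the same number for 2 vehicle arrays and 2 DBP arrays, so a pairing is not excluded. With the replicate block 175 probe sets passed, with 0 members among them and -0.35 for Inhbb (adjusted p = 0.107).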

Other observations

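The other marker lists were also measured, and a change in the cells sampled was not tested. Of 6 endothelial markers 1 passed in limma, Plvap, a protein of endothelial diaphragms, higher by 0.36 (adjusted p = 0.0471). Of the same 6 markers, 4 were lower and 2 higher. In the other lists 0 passed, where 1.22% of all genes did. The median differences were 0.06 for 3 germ cell markers, 0.19 for 6 peritubular myoid markers, -0.13 for 7 interstitial stroma markers, -0.05 for the 6 endothelial markers, 0.09 for 7 macrophage markers, 0.30 for 6 erythroid markers and 0.09 for 6 mesonephric duct and epididymis markers. An unadjusted p under 0.05 was seen for 1 germ cell, 2 myoid, 1 endothelial (Plvap), 2 macrophage, 2 erythroid and 2 duct markers that were higher. It was also seen for 2 stroma markers that were lower. Of all genes, 11.3% were higher and 7.84% lower at that level, and the lists are short. The 5 granulosa and ovary markers other than Fst had a median of 0.125, with 1 higher and 1 lower at an unadjusted p under 0.05. Foxl2, the defining granulosa cell factor, read 6.14 to 6.36 in vehicle and 6.20 to 6.63 in DBP, near the array medians.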
